A study of Mus musculus with 6 samples.

Results

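The genes described here encode the proteins of the mitochondrial ribosome, measured in mouse mammary organoids with and without doxycycline (DOX). A gene was included when a probe set of the array carried exactly 1 gene symbol and that symbol was Mrpl or Mrps followed by a number. This gave 77 genes of 19937 measured genes, 48 of the large subunit (Mrpl) and 29 of the small subunit (Mrps), represented by 85 probe sets. A gene with more than 1 probe set was represented by the one with the highest mean over the 6 arrays, and 1 further probe set, shared by Ccdc142 and Mrpl53, was left out. Subunits were assigned by symbol, without use of the measured values.

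The organoids were pieces of mammary epithelium from age-matched female FVB mice of the genotype ErbB3 DOX-KO, in which DOX induces the loss of Erbb3, a neuregulin receptor of the EGF receptor family. Both groups carried this genotype and were grown in growth factor-reduced Matrigel, a basement-membrane gel, for 14 days. The DOX group (3 arrays) received 5 µM DOX and the control group (3 arrays) received none. The series counts its replicates as biological, but whether each came from a separate mouse is not given in the labels, nor are the cell type and promoter that drive the inducible knockout, so p-values measure the spread between these cultures. DOX is also a tetracycline antibiotic, a class that blocks bacterial ribosomes and, less strongly, mitochondrial ones. With no DOX-treated culture lacking the knockout alleles here, loss of Erbb3 and exposure to the drug cannot be told apart.

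Mitochondrial ribosomes translate the few proteins encoded by the mitochondrial genome, all of them subunits of the oxidative phosphorylation complexes. Their RNA comes from that genome, whereas all of their proteins are encoded in the nucleus, made in the cytosol and imported. Many of these proteins descend from those of the bacterial ribosome, and the others were gained in mitochondria, where they surround a core with less RNA than in bacteria.

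The arrays had 1 colour, and all levels are on the deposited log2 scale. DOX replicate 2 stood apart: its correlation with the other arrays over all genes lay between 0.816 and 0.865, against at least 0.963 among the other 5 arrays. Its values were also compressed, with a slope of 0.548 on the control mean, where DOX replicates 1 and 3 had slopes of 0.981 and 0.936. The lower and upper quartiles of its probe sets were 4.83 and 6.90. On the other arrays they were 4.10 to 4.29 and 7.34 to 7.46, so the deposited values did not share 1 distribution. Results are therefore given for all 6 arrays and for the 5 arrays without DOX replicate 2, named the 6-array fit and the 5-array fit. Erbb3 read 10.36, 9.31 and 9.82 on the arrays labelled DOX 1, 2 and 3, against 9.78, 9.71 and 9.69 on the control arrays. It was thus not lower under DOX (difference 0.10, adjusted p = 0.845 in the 6-array fit, and 0.37, adjusted p = 0.105 in the 5-array fit), and no source used here gives the deleted stretch, so its level does not check the knockout. With so few arrays precision is limited throughout, and values of different probe sets share no absolute scale.

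Messages for mitochondrial ribosomal proteins were lower in DOX organoids, broadly and by modest amounts, while only a few were higher. In bulk RNA such as this, fewer cells of a type and less RNA per cell cannot be told apart. In the 5-array fit, 33 of the 77 genes (42.9%) fell at an adjusted p under 0.05 and 2, Mrps9 and Mrps31, rose. Over all genes, 14.3% were called lower and 12.3% higher in the same fit. The falls ranged over folds of 0.492 to 0.795 relative to control. With 1 more array left out, the number of members lower lay between 17 (without control replicate 2, where 10.9% of all genes were lower) and 33, and was 19 without DOX replicate 3 (11.8%). In the 6-array fit only Mrpl48, a large subunit protein gained in mitochondria, fell (difference −0.98 ± 0.17 (SE), adjusted p = 0.0398) and 0 rose, where 2.26% and 0.12% of all genes were called lower and higher. The median difference of the 77 genes, DOX minus control, was −0.28 in the 5-array fit and −0.66 in the 6-array fit, against 0.01 and 0.02 for all genes.

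Most genes leaned the same way whether or not they passed the test. The difference was negative for 70 of 77 genes in the 5-array fit and for 73 in the 6-array fit. Among all 19937 genes it was negative for 9663 and 9614. Genes of similar control mean also lay lower in the 6-array fit, at a median of −0.41, so counts with 6 arrays are partly shared by genes of that level. Every DOX array lay below every control array for 50 genes (all genes, 20.3%), and every DOX array lay above for 1, Mrps9 (all genes, 11.7%). Without DOX replicate 2 these counts were 53 and 4, with 26.2% and 25.4% of all genes. Of the 42 genes not called in the 5-array fit, 37 had a negative difference.

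DOX replicate 2 read lowest of the DOX arrays for 69 of the 77 genes. The exceptions were Mrpl12, Mrpl27, Mrpl28, Mrpl46, Mrpl54, Mrps10, Mrps16 and Mrps24. The array widened the spread in the DOX group, and the standard errors of the members reached 0.69 in the 6-array fit, against at most 0.18 in the 5-array fit. It took no part in the 5-array fit, and all 33 genes that fell there also read below every control array on DOX replicate 2. Genes of similar control mean lay at a median of −1.12 from it on that array, so this count is no separate support for the falls. On that array 25 of these 33 genes, and 24 of the other 44, lay deeper below their control mean than genes of similar level did.

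**Figure D1:**
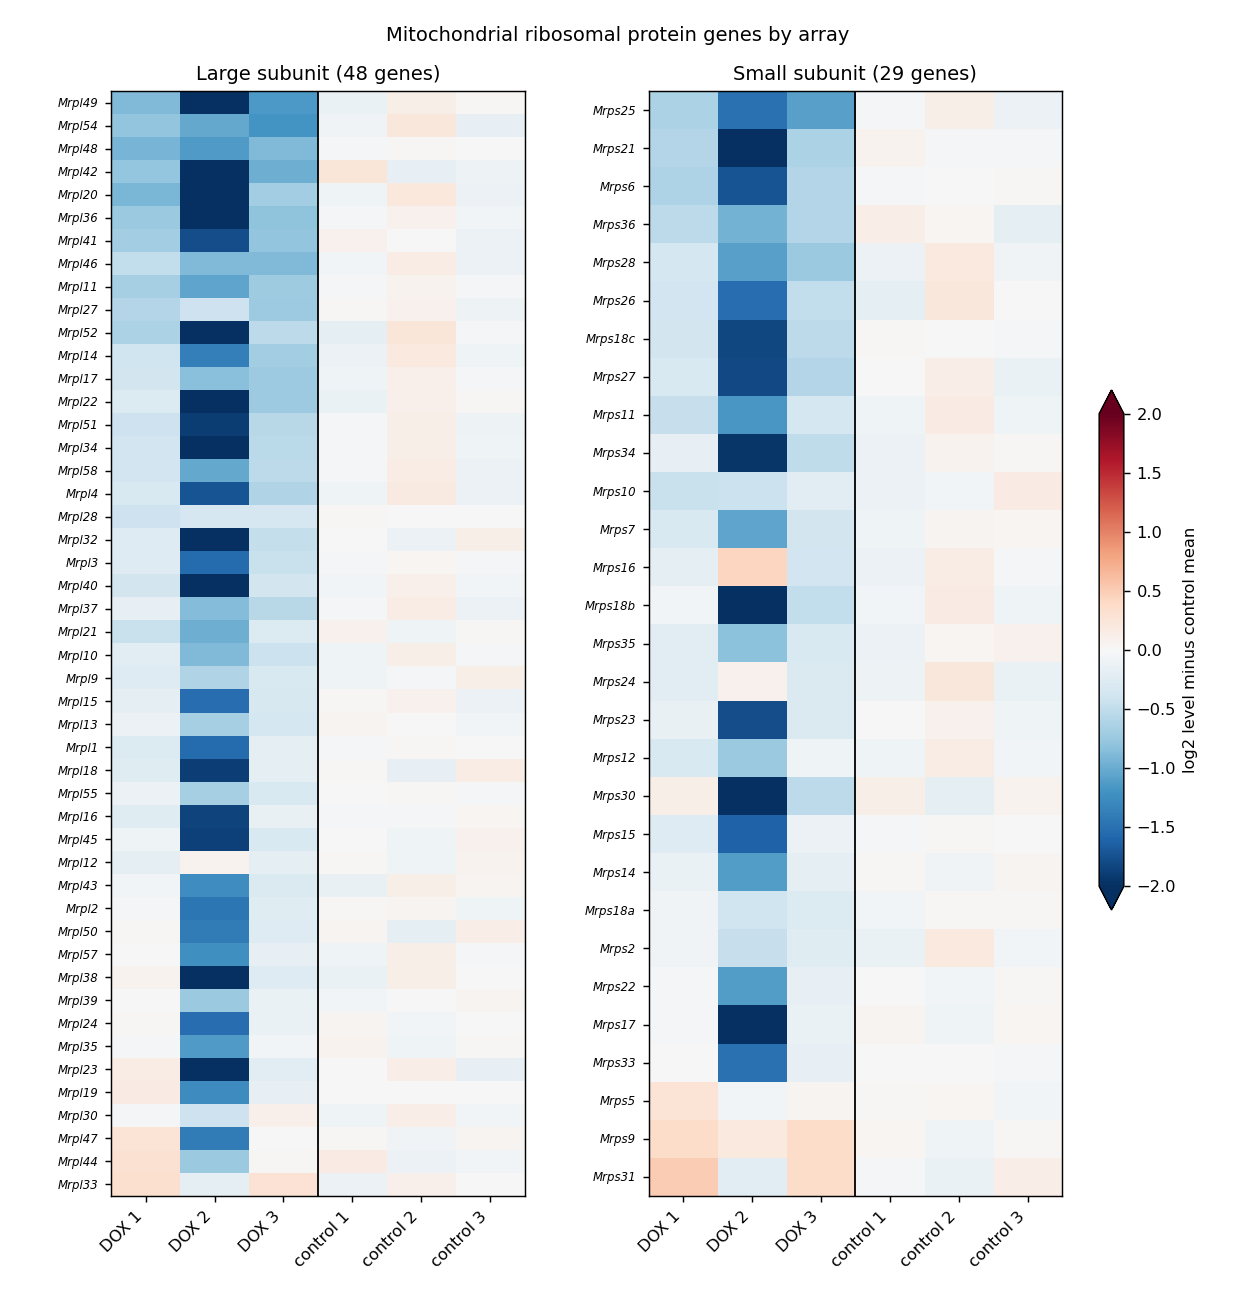
Log2 level minus the control mean for each of the 48 large subunit genes (left) and 29 small subunit genes (right), on the 3 DOX arrays and then the 3 control arrays. Colour runs from blue (lower) to red (higher) and is clipped at 2 log2 units, genes are ordered by their difference without DOX replicate 2, and the DOX columns are blue for most genes, with DOX replicate 2 the deepest.

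Among large subunit genes 23 of 48 (47.9%) fell in the 5-array fit and 0 rose. The shares that fell and rose in that fit were 14.3% and 12.3% over all genes. Among genes of similar control mean they were 24.8% and 19.2%. The 4 with the largest falls all encode proteins of the mitochondrial large subunit that bacteria lack. Mrpl49 read 7.72, 5.81 and 7.46 on the DOX arrays, against 8.47, 8.73 and 8.63 on the control arrays. It lay lower on every DOX array, by −1.02 ± 0.13 (SE) in the 5-array fit (adjusted p = 0.000186), a fold of 0.492. With DOX replicate 2 its difference was −1.61 ± 0.49 and its adjusted p 0.212.

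Mrpl54 read 7.11, 6.88 and 6.70 on the DOX arrays, against 7.83, 8.13 and 7.74 on the control arrays. DOX replicate 2 here lay between the other DOX arrays, and the difference was close in both fits, −0.99 ± 0.16 (adjusted p = 0.000854) with 5 arrays and −1.0 ± 0.21 (adjusted p = 0.0707) with 6. Mrpl48 read 7.09, 6.89 and 7.13 on the DOX arrays, against 7.99, 8.04 and 8.02 on the control arrays. Its groups were tight and far apart, averaging 7.04 ± 0.13 in DOX and 8.02 ± 0.02 in control organoids (SD, n = 3 each), which made it the only member past the threshold in both fits (5-array difference −0.91 ± 0.11, adjusted p = 0.000120). Its call in the 6-array fit was the least secure part of that result. Of the alternative analyses that kept DOX replicate 2, only those with mean probe sets or without the lowest-level genes held it. The call was lost with any other single array left out, with replicate number as a block, and with each other normalization. Another variance model also lost it, and the limma adjusted p in these analyses lay between 0.0666 and 0.279. Mrpl42 read 5.52, 3.45 and 5.32 on the DOX arrays, against 6.54, 6.14 and 6.20 on the control arrays, and fell by 0.88 ± 0.14 in the 5-array fit (adjusted p = 0.000989).

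The large subunit genes that fell also included relatives of bacterial proteins from several regions of the ribosome. Mrpl11, whose bacterial relative lies at the base of the stalk where translation factors bind, read 7.81, 7.41 and 7.76 on the DOX arrays and 8.44, 8.54 and 8.43 on the control arrays. Its difference was −0.68 ± 0.11 in the 5-array fit (adjusted p = 0.000989) and −0.81 in the 6-array fit (adjusted p = 0.105). Mrpl27, whose bacterial relative reaches towards the peptidyl transferase centre, read 7.68, 7.86 and 7.55 on the DOX arrays and 8.30, 8.35 and 8.17 on the control arrays. It was among the few members for which DOX replicate 2 was the nearest of the DOX arrays to control (5-array difference −0.66 ± 0.12, adjusted p = 0.00170). Mrpl20 and Mrpl36, relatives of bacterial L20 and L36, fell by 0.81 (adjusted p = 0.00122) and 0.78 (adjusted p = 0.000476).

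Further falls in the 5-array fit lay between −0.73 for Mrpl41 and −0.35 for Mrpl21. They included those of Mrpl3, Mrpl4, Mrpl17, Mrpl34, Mrpl40 and Mrpl52. Mrpl14, at whose surface the assembly factor Malsu1 docks, fell by 0.55 (adjusted p = 0.0141), and Mrpl22, whose bacterial relative lines the exit tunnel, by 0.50 (adjusted p = 0.0258). Mrpl32, whose precursor must be cut by a mitochondrial protease before it joins the ribosome, fell by 0.37 (adjusted p = 0.0444). Mrpl58, also known as Ict1, a release-factor relative that frees peptides from stalled ribosomes, fell by 0.46 (adjusted p = 0.0166).

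Mrpl28 had the narrowest spread in the DOX group of all members. It read 7.31, 7.40 and 7.39 on the DOX arrays and 7.75, 7.72 and 7.72 on the control arrays, a difference of −0.38 (adjusted p = 0.0234) with 5 arrays and −0.37 (adjusted p = 0.375) with 6. The 6-array sign turned to 0.07 after a further quantile normalization (adjusted p = 0.891).

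The large subunit genes at the other end of the range did not pass the test. Mrpl33, a relative of bacterial L33, read 6.45, 5.94 and 6.42 on the DOX arrays and 6.02, 6.23 and 6.14 on the control arrays. DOX replicates 1 and 3 lay above all control arrays and DOX replicate 2 below them, giving 0.31 ± 0.11 with 5 arrays (adjusted p = 0.0705) and 0.14 with 6 (adjusted p = 0.713). Mrpl44, which has a ribonuclease III fold, had 5-array and 6-array differences of 0.17 (adjusted p = 0.392) and −0.14 (adjusted p = 0.809). Those of Mrpl47 were 0.14 (adjusted p = 0.463) and −0.38 (adjusted p = 0.643). Mrpl12, a stalk protein that also binds the mitochondrial RNA polymerase, read 7.45, 7.70 and 7.43 on the DOX arrays and 7.65, 7.55 and 7.70 on the control arrays, and did not pass in either fit (5-array difference −0.19, adjusted p = 0.241).

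Among small subunit genes 10 of 29 (34.5%) fell in the 5-array fit and 2 (6.9%) rose. Genes of similar control mean fell and rose in 25.2% and 18.5% of cases, and all genes in 14.3% and 12.3%. Whether the small subunit shares differ from those of the large subunit was not tested. Mrps25, a protein of the mitochondrial small subunit that bacteria lack, read 6.47, 5.62 and 6.02 on the DOX arrays, against 7.09, 7.23 and 6.99 on the control arrays. Its groups did not overlap and it had the largest fall of the small subunit, −0.86 ± 0.15 in the 5-array fit (adjusted p = 0.00142) and −1.07 ± 0.25 in the 6-array fit (adjusted p = 0.111). Mrps21 read 9.61, 7.46 and 9.57 on the DOX arrays, against 10.27, 10.16 and 10.17 on the control arrays. This relative of bacterial S21 fell by 0.61 ± 0.11 with 5 arrays (adjusted p = 0.00184). Mrps6, a relative of bacterial S6, fell by 0.60 (adjusted p = 0.00197).

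The others that fell were Mrps36, Mrps28, Mrps18c, Mrps26, Mrps27, Mrps11 and Mrps7, with 5-array differences from −0.56 to −0.33. Mrps36 was named as a small subunit protein, but its product has since been found in the 2-oxoglutarate dehydrogenase complex and is absent from mitoribosome structures. It read 7.41, 6.99 and 7.35 on the DOX arrays and 8.08, 7.98 and 7.76 on the control arrays, with no overlap (5-array difference −0.56, adjusted p = 0.00665). Mrps12, a relative of bacterial S12 at the decoding site, did not pass the test (−0.21, adjusted p = 0.260), nor did Mrps30, whose product sits in the large subunit in structures (−0.20, adjusted p = 0.448).

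Mrps18a, Mrps18b and Mrps18c are paralogs related to bacterial S18, and structures place the product of Mrps18a in the large subunit and those of the other 2 in the small one. Mrps18c read 9.44, 7.98 and 9.28 on the DOX arrays, against 9.82, 9.80 and 9.78 on the control arrays. It fell by 0.44 in the 5-array fit (adjusted p = 0.0135), whereas the differences of Mrps18b (−0.28, adjusted p = 0.207) and Mrps18a (−0.17, adjusted p = 0.303) did not pass. Whether the paralogs differ from each other was not tested.

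Both members that rose belong to the small subunit by symbol. Mrps9, a relative of bacterial S9, read 7.53, 7.36 and 7.54 on the DOX arrays, against 7.21, 7.09 and 7.20 on the control arrays. Every DOX array exceeded every control array, and the difference was 0.36 ± 0.11 with 5 arrays (adjusted p = 0.0312) and 0.31 ± 0.17 with 6 (adjusted p = 0.443). Mrps31, a protein that bacteria lack, read 7.54, 6.82 and 7.40 on the DOX arrays, against 7.02, 6.91 and 7.18 on the control arrays. It was above control on DOX replicates 1 and 3, and on DOX replicate 2 it lay below all control arrays (5-array difference 0.43 ± 0.12, adjusted p = 0.0234; 6-array difference 0.22, adjusted p = 0.631). Both calls were marginal. With 1 more array left out of the 5-array fit Mrps9 missed the threshold each time (adjusted p 0.0587 to 0.102), and Mrps31 missed it without DOX replicate 1, control replicate 1 or control replicate 2 (adjusted p 0.0727 to 0.0902).

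**Figure D2:**
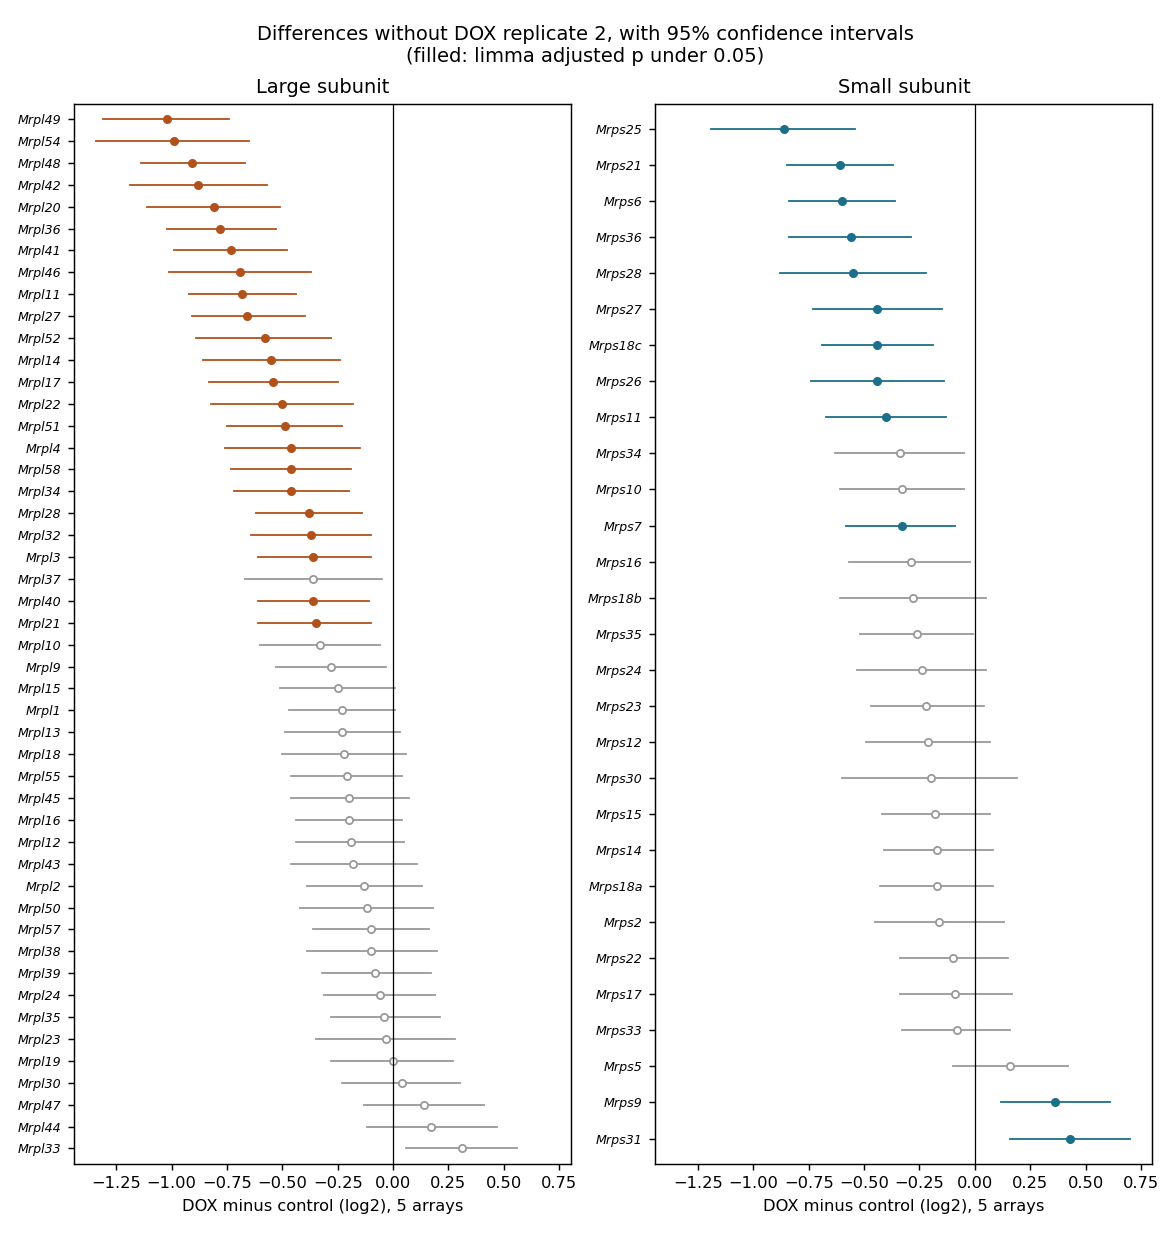
Difference DOX minus control in log2 units without DOX replicate 2 for each large subunit gene (left) and small subunit gene (right), with 95% confidence intervals from limma. Filled points have an adjusted p under 0.05 over all genes, 33 of them left of 0 and 2, Mrps9 and Mrps31, right of it.

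The mean of the large subunit genes lay slightly further below control than that of the small subunit genes. The mean over large subunit genes was 7.76, 6.60 and 7.62 on DOX arrays 1, 2 and 3, against 8.02, 8.09 and 8.02 on the control arrays. That over small subunit genes was 7.81, 6.83 and 7.67 on the DOX arrays, against 7.97, 8.05 and 7.99 on the control arrays. The large subunit mean minus the small subunit mean was −0.048, −0.229 and −0.058 in DOX and 0.047, 0.036 and 0.026 in control. This difference averaged −0.112 ± 0.102 in DOX and 0.037 ± 0.010 in control organoids (SD, n = 3 each), a change of −0.148, and was below 0 on all DOX arrays and above 0 on all control arrays. Without DOX replicate 2 the change was −0.09, small beside the shift of either subunit itself (−0.352 for the large and −0.262 for the small subunit mean). It stayed between −0.08 and −0.19 in every alternative analysis run, including one with Mrps18a and Mrps30 counted as large subunit genes and Mrps36 left out. No p is given, since the genes of a subunit are not replicates.

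**Figure D3:**
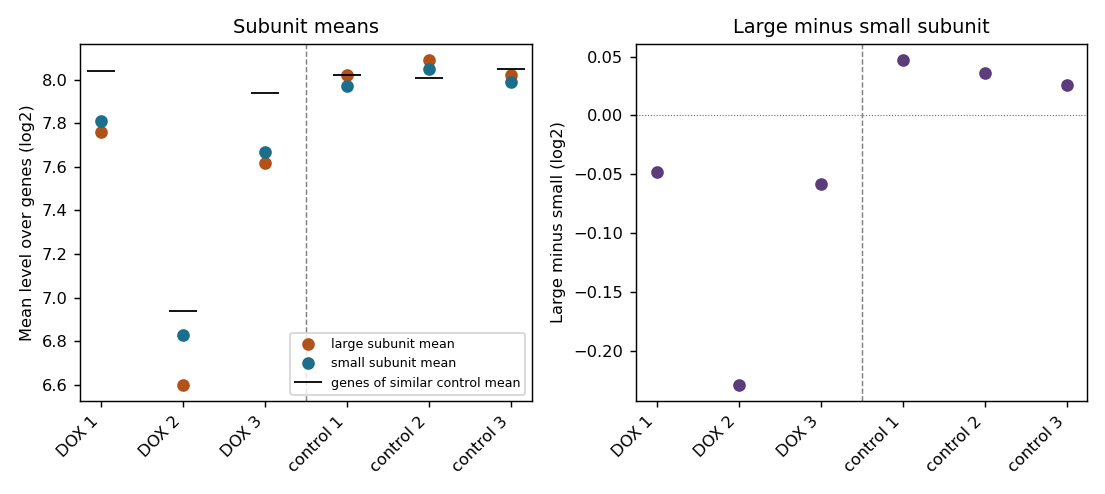
Left, mean log2 level over the 48 large subunit genes, the 29 small subunit genes and genes of similar control mean, on each DOX array and then each control array; right, large minus small subunit mean. The right panel runs from −0.229 to −0.048 on DOX arrays and from 0.026 to 0.047 on control arrays.

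Genes of similar level were used to set the members against the compression of DOX replicate 2. Each member was compared with the 322 to 1522 other genes whose control mean lay within 0.25 log2 units of its own. In the 5-array fit the members had a median difference of −0.28, against −0.03 for these genes, and 69 of 77 members (43 of 48 large and 26 of 29 small subunit genes) lay below the median of their similar genes. The members' median distance below it was −0.25 with 5 arrays and −0.27 with 6, although the similar genes themselves had a median of −0.41 with 6. The 42.9% of members called lower and 2.6% called higher in the 5-array fit compare with 25% and 18.9% of similar genes.

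The median distance of large subunit genes from their similar genes was −0.27, −0.28 and −0.25 on DOX arrays 1, 2 and 3, against −0.02, 0.08 and −0.05 on the control arrays. That of small subunit genes was −0.24, −0.10 and −0.26 on the DOX arrays, against −0.01, 0.05 and −0.04 on the control arrays. The large subunit distance was thus nearly equal on the 3 DOX arrays, and the small subunit distance was nearer 0 on DOX replicate 2. Members lay a median of −0.25, −1.26 and −0.34 from their control mean on DOX arrays 1, 2 and 3, against −0.02, 0.05 and −0.02 on the control arrays. Similar genes lay at 0.04, −1.12 and −0.09 on the DOX arrays and at −0.01, −0.02 and 0.03 on the control arrays. The number of members below their similar genes was 64, 49 and 68 on the DOX arrays and 46, 21 and 53 on the control arrays. On DOX replicate 2 the low readings of the members were thus largely shared by other genes of that level, and the control arrays differed among themselves as well.

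**Figure D4:**
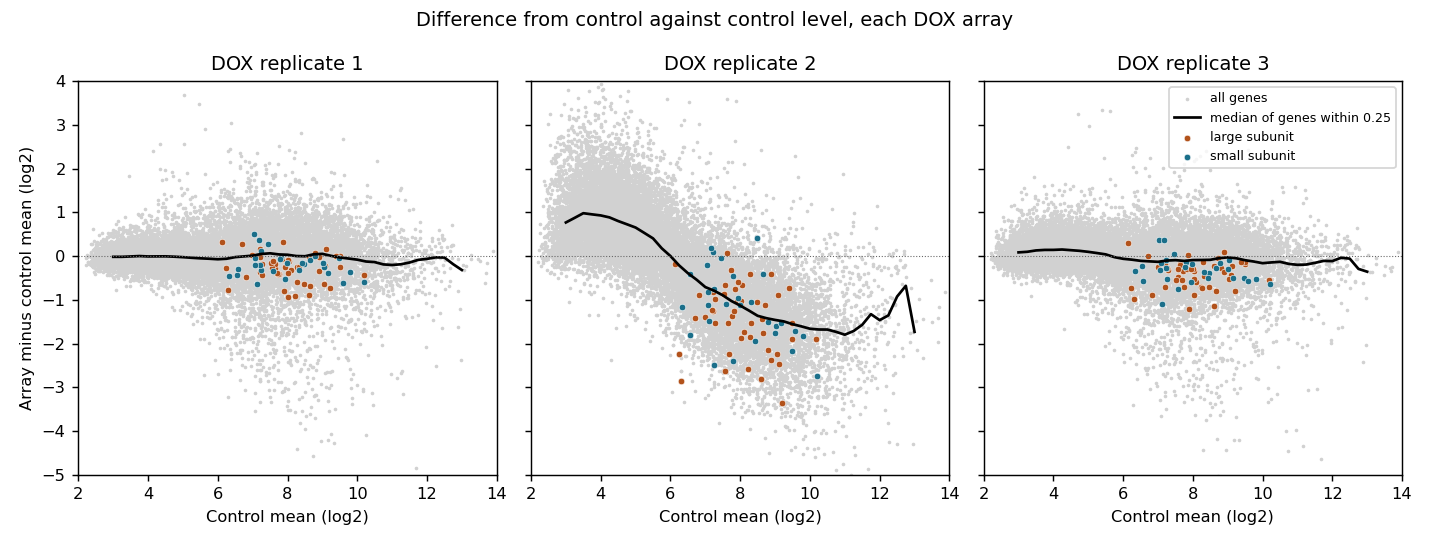
Array minus control mean against control mean, both in log2 units, for DOX replicates 1, 2 and 3, with all genes in grey, large subunit genes in orange and small subunit genes in blue (a few grey points beyond the axis are not drawn). The black line is the median of genes within 0.25 log2 units; it falls steeply with level on DOX replicate 2, and members lie below it for 64, 49 and 68 of 77 genes on the 3 arrays.

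The members were also counted by the ancestry of their proteins. For comparison, 14.3% of all genes fell and 12.3% rose in the 5-array fit, as did 25% and 18.9% of genes of similar level. Of 47 genes with a bacterial relative, 19 fell and 1 rose in that fit, with a median difference of −0.28. Of 30 genes gained in mitochondria, 14 fell and 1 rose, with a median of −0.35. Within the large subunit the shares that fell were 44.8% of 29 and 52.6% of 19 genes. Within the small subunit they were 33.3% of 18 and 36.4% of 11 genes, and none of these differences was tested.

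For 8 genes a further probe set gave a partial check. In the 5-array comparison the probe set used and the further one read −0.66 and −0.63 for Mrpl27, −0.56 and −0.51 for Mrps36, and −0.73 and −0.37 for Mrpl41. The values lay further apart for Mrpl51, at −0.49 and −0.10, and for Mrps33, at −0.08 and −0.35. Mrpl47 had opposite signs, 0.14 and −0.22. Mrpl23 (−0.03 and 0.02) and Mrps5 (0.16 and 0.11) were near 0 or above it on both. The size of a fall of Mrpl51 or Mrpl41 therefore depended on the probe set, and near-identical gene copies that share probes could not be checked here.

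Promoters of the members were read from RefSeq windows of 300 bases (250 before the start site to 50 after it; GRCm38.p6), which were found for 68 of the 77 genes, 74 windows in all. Nuclear genes for mitochondrial proteins are known for binding sites of NRF1, of ETS-family factors such as GABP, and of YY1. The letters GCGCNTGCG (NRF1), searched on both strands, occurred in 18 of 74 windows (24.3%), against 6.31% of 32851 windows of all genes. CCGGAAG (ETS) occurred in 25 (33.8%, against 8.86%) and AAGATGGCG (YY1) in 8 (10.8%, against 1.4%), and none of these letter strings was required to be free of overlap with another. TATAAA was found in 5 (6.76%, against 13.6%) and CCAAT in 29 (39.2%, against 37.4%). Member windows held a median of 21 CG dinucleotides against 7 in all windows, and matches to letters rich in C and G follow base composition, which was not adjusted for. Among the 33 genes that fell, 30 had a window, and NRF1, ETS and YY1 letters were found in 7, 14 and 4 of them; among the 38 others with a window the counts were 11, 11 and 4.

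Windows are shown for 3 genes: Mrpl46, which shares a start region with Mrps11 and fell with it, Mrpl48, which fell in both fits, and Mrps9, which rose. The Mrpl46 window lies at chr7:78783040-78783339 on the minus strand, the Mrpl48 window at chr7:100583081-100583380 on the minus strand, and the Mrps9 window at chr1:42850983-42851282 on the plus strand. Capitals mark the stretch between the start sites of Mrpl46 and Mrps11, the ETS letters read from the opposite strand in Mrpl48 (1 of its 4 windows), and the NRF1 letters in Mrps9.
Mrpl46: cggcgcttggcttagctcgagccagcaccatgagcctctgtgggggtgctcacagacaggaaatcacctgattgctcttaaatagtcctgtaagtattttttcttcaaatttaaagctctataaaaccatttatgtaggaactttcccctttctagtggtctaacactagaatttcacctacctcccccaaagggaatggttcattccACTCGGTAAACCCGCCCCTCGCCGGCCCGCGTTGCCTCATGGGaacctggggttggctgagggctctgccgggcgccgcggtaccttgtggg
Mrpl48: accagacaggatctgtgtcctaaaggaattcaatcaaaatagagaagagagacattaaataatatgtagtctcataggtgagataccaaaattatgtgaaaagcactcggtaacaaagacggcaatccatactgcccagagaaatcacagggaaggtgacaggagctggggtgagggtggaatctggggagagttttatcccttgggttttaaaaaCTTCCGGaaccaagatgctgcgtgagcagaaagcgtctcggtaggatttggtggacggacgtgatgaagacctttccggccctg
Mrps9: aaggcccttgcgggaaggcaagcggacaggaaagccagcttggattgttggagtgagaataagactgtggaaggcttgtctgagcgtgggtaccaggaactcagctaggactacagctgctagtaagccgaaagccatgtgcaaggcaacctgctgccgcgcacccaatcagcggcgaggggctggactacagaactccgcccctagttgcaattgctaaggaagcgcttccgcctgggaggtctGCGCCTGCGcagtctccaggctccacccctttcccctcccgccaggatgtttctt
A match is a description of the letters and says nothing of whether a factor was bound in these organoids.

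Divergent promoters, from which a pair of genes is transcribed in opposite directions, were looked for in the same windows. Head-to-head start sites within 1000 bases were found for 26 of the 68 members with a window (38.2%), against 12.3% of 27025 genes with a window. Mrpl46 and Mrps11 were the only members paired with each other, with start sites 42 bases apart. Mrpl46 read 6.32, 5.94 and 5.93 on the DOX arrays against 6.77, 6.97 and 6.70 on the control arrays, and fell by 0.69 in the 5-array fit (adjusted p = 0.00454). Mrps11 read 5.87, 5.16 and 5.98 on the DOX arrays against 6.25, 6.49 and 6.24 on the control arrays, and fell by 0.40 (adjusted p = 0.0324). The groups of neither gene overlapped.

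The other 24 members faced genes outside the family, 22 of which were measured. Of these 22 neighbours 8 fell, 1 rose and 13 were not called in the 5-array fit. Over all genes, 14.3% fell and 12.3% rose in that fit. In 2 pairs both genes fell, Mrpl27 with Eme1 and Mrpl51 with Ncapd2. The further probe set of the member read −0.63 for Mrpl27 but only −0.10 for Mrpl51. Whether neighbours differ from all genes or follow their members was not tested. Mrpl49, with the largest fall of all members, faces Fau, a fusion gene of a ubiquitin-like and a ribosomal protein, which had a difference of −0.15 (adjusted p = 0.434). Mrpl57 (−0.10, adjusted p = 0.599) faces Ska3, a kinetochore gene, which fell by 2.98 (adjusted p = 5.46e-08). Mrpl47 (0.14) faces Ndufb5, a subunit of complex I, which fell by 0.56 (adjusted p = 0.00361).

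Genes that build, regulate or use the mitochondrial ribosome were counted from lists of known members. None of the 4 measured mitoribosomal proteins with other names passed the test (Dap3, Ptcd3, Chchd1 and Gadd45gip1), and their median difference was −0.11 in the 5-array fit. Of 26 assembly factors and RNA modifiers, 2 fell (7.69%) and 2 rose (7.69%), with a median of −0.01, against 14.3% and 12.3% of all genes in the same fit. Rbfa, which matures the small subunit RNA, fell by 0.90 (adjusted p = 0.00108) and the methyltransferase Mrm2 by 0.50 (adjusted p = 0.0138). Mterf3 rose by 0.51 (adjusted p = 0.0109), and Tfb1m, which dimethylates the small subunit RNA, by 0.46 (adjusted p = 0.0109). On DOX replicate 2 both Mterf3 and Tfb1m read below all control arrays, at 5.81 and 5.69.

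Of 15 translation factors and mRNA-handling genes 2 fell (13.3%) and 2 rose (13.3%), close to the shares of all genes, 14.3% and 12.3%, and their median was −0.02. The elongation factor gene Tufm fell by 0.53 (adjusted p = 0.00486) while that of Gfm1, another elongation factor, rose by 0.49 (adjusted p = 0.0142). On DOX replicate 2, however, Gfm1 read 6.82, below all control arrays. Lrpprc and Slirp encode partners in 1 complex that stabilises mitochondrial mRNA, and their messages moved oppositely. Lrpprc read 9.31, 7.75 and 9.11 on the DOX arrays against 8.46, 8.31 and 8.55 on the control arrays, and rose by 0.77 in the 5-array fit (adjusted p = 0.000912). Slirp read 8.04, 6.5 and 8.16 on the DOX arrays against 8.67, 8.63 and 8.81 on the control arrays, and fell by 0.60 (adjusted p = 0.00284).

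Of 13 genes for mitochondrial transcription and its regulators, 0 fell and 3 (23.1%) rose in the 5-array fit, against 14.3% and 12.3% of all genes. Ppargc1a, a coactivator known for raising mitochondrial biogenesis, read 8.34, 6.46 and 8.14 on the DOX arrays, against 7.12, 7.03 and 7.16 on the control arrays. It rose by 1.14 ± 0.12 (adjusted p = 4.07e-05), with DOX replicate 2 below all control arrays. Yy1 rose by 0.47 (adjusted p = 0.00863) and Myc by 0.54 (adjusted p = 0.0103). They too lay below all control arrays on DOX replicate 2, at 8.18 and 8.85. None of these genes of the 3 lists passed in the 6-array fit.

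The nuclear genes for subunits of the oxidative phosphorylation complexes had a median further below 0 than the members. Of 80 such genes 49 (61.3%) fell and 0 rose in the 5-array fit, with a median difference of −0.50, and 1, the complex I subunit Ndufb7, fell in the 6-array fit (−1.0, adjusted p = 0.0360). Of 54 genes for proteins of the cytosolic ribosome 7 fell (13%) and 3 rose (5.56%) in the 5-array fit, with a median of −0.05. The share that fell was close to the 14.3% of all genes, and 12.3% of all genes rose. The families are not matched for level, with a median control mean of 7.94 for the members and 11.44 for the cytosolic ribosomal proteins. The test of a difference between these families was not made.

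**Figure D5:**
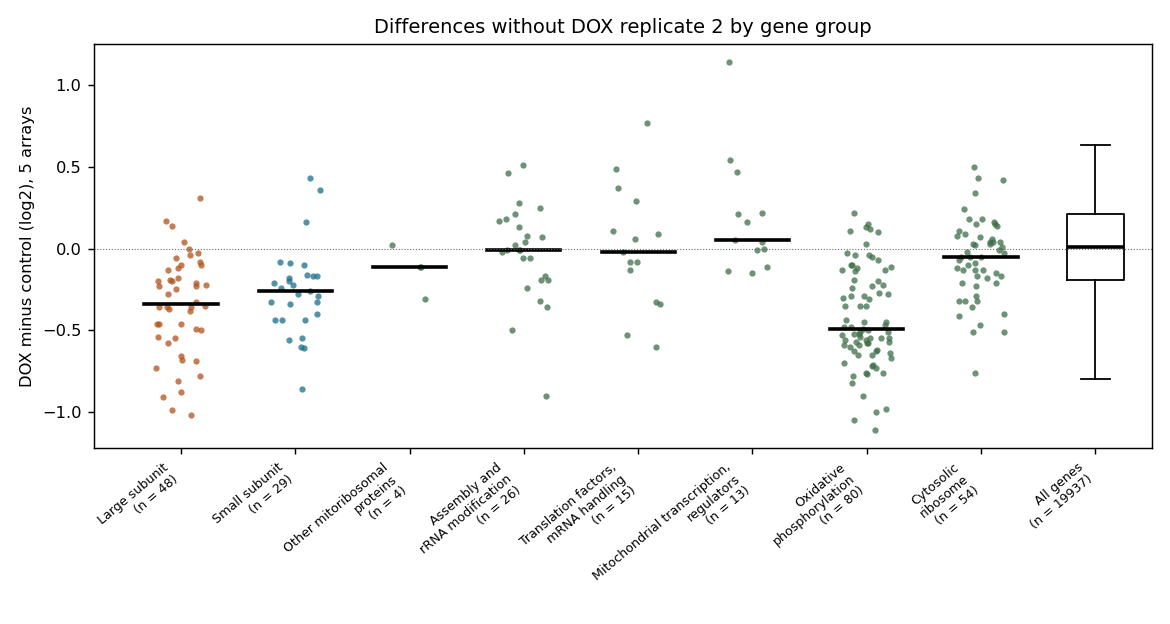
Difference DOX minus control in log2 units without DOX replicate 2 for every gene of 8 groups, with a line at each median. Beside them is a box of all 19937 genes, with median, quartiles and whiskers that stop short of the extremes. Genes beyond the whiskers are not drawn. Large and small subunit genes have medians of −0.34 and −0.26, oxidative phosphorylation genes −0.50 and cytosolic ribosomal proteins −0.05.

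Markers of the cell types that the organoids could hold were read from the same arrays. Epithelial markers had a mean level over the 6 genes of 9.37, 8.93 and 9.39 on the DOX arrays and of 9.85, 9.89 and 9.83 on the control arrays. The basal keratin Krt5 read 4.99 to 5.56 on the DOX arrays and 4.84 to 5.49 on the control arrays, and Krt14 read 5.34 to 5.83 on the DOX arrays and 6.5 to 6.77 on the control arrays. Krt8 (−0.74, adjusted p = 0.000494), Krt18 (−0.64, adjusted p = 0.00156) and Krt14 (−1.06, adjusted p = 0.000338) fell in the 5-array fit. Epcam (−0.28, adjusted p = 0.0781), Cdh1 (−0.07, adjusted p = 0.719) and Krt5 (−0.06, adjusted p = 0.854) were not called. No marker of fibroblasts (5 genes), adipocytes (4) or endothelium (4) was called in either fit. Of the 3 measured immune markers Cd68 (1.01, adjusted p = 0.000103) and Ptprc (0.38, adjusted p = 0.0358) rose in the 5-array fit. Neither was called in the 6-array fit, and Cd3e was not called in the 5-array fit (0.08, adjusted p = 0.749). Their list averaged 6.23, 6.36 and 6.36 on the DOX arrays and 5.75, 5.82 and 5.85 on the control arrays. On DOX replicate 2, however, Cd68 read 6.72, below all control arrays, while Cd3e read 7.06, above them. The part of these markers in the values of the mitochondrial ribosomal proteins was not tested.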

How the data were processed

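RNA of 3 DOX and 3 control organoid cultures was measured on 1 array each. The log2 values were used as deposited by the authors; RMA and affy are named in the submitters' processing notes, without versions, and a genome build is not given in these sources. RMA shrinks differences of dim probe sets and gives no detection calls. Of 34760 probe sets, 21640 carried 1 gene symbol, 1321 several and 11799 none, and only the first kind was used. Groups were taken from sample titles. Each gene was fitted in limma (version 3.58.1, R version 4.3.3) by linear model and empirical Bayes moderation, two-sided and without covariates. Adjustment was by Benjamini-Hochberg over all 19937 genes, calls were made under 0.05, and control was subtracted from DOX. The fit was repeated without DOX replicate 2 and tested on simulated data. The members, gene lists and tests were chosen with earlier results of these data known. Genes named were all members called in either fit, the extremes of each subunit, preset paralogs and, per list, up to 4 called genes; further genes appear as probe set or promoter partners. Sequences are RefSeq's (GRCm38.p6), matched by symbol. Alternatives were left-out arrays, a replicate block, other normalizations, a low-level filter, mean probe sets, another variance model and, added after seeing the data, cyclic loess and further left-out arrays without DOX replicate 2.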

Additional observations from a re-analysis of the deposited data

How the results depend on the processing

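The medians of both subunits, the large minus small subunit difference and the distance from genes of similar level kept their sign under every alternative run. The median of large subunit genes lay between -0.88 and -0.26, that of small subunit genes between -0.78 and -0.19, and the distance from similar genes between -0.34 and -0.23. The counts of calls depended on the analysis. Leaving out 1 array gave 2 to 2454 genes higher and 61 to 2855 lower, the top of each range without DOX replicate 2, and 0 to 33 members lower and 0 to 2 higher. Among all genes, calls higher and lower numbered 3 and 159 with the replicate block, 628 and 1099 with cyclic loess, and 314 were higher after a further quantile normalization. Members lower numbered 0 with the replicate block, with arrays centred on their medians and with a variance trend, and 4 with cyclic loess. Without DOX replicate 2, a further quantile normalization gave 3180 higher and 2705 lower genes with 3 and 27 members (26 of the 33), mean probe sets 2463 and 2861 with 2 and 32 (all among the 33), and cyclic loess 2751 and 3016 with 3 and 34 (32 of the 33). Leaving out a further array then gave 1550 to 2515 genes higher and 2168 to 2914 lower, with 17 to 33 members lower and 0 to 1 higher; it was 17 without control replicate 2 and 19 without DOX replicate 3. The cause was not tested.

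Signs turned for 8 named members, none called in that analysis. Mrps5 was at -0.0017 without DOX replicate 1 and -0.05 with mean probe sets. Mrpl12, Mrpl30, Mrpl44 and Mrps18a reached 0.33, 0.29, 0.23 and 0.16 after a further quantile normalization, as Mrpl28 did at 0.07, and 0.26, 0.33, 0.25 and 0.18 with cyclic loess. Without DOX replicate 2 Mrpl30, Mrpl44 and Mrpl47 read 0.04, 0.17 and 0.14; with a further quantile normalization 0.02, 0.21 and 0.30; with cyclic loess 0.03, 0.18 and 0.19; and Mrpl30 and Mrpl44 0.04 and 0.17 with mean probe sets. Over all analyses with 1 array or DOX replicate 2 and 1 more left out, Mrpl30 lay between -0.22 and 0.11, Mrpl44 between -0.36 and 0.31, Mrpl47 between -0.70 and 0.27, Mrps30 between -1.51 and 0.12 and Mrps5 between -0.0017 and 0.27. Mrpl48 lost its 6-array call in 10 of 21 alternatives, all of which kept DOX replicate 2. They were each other single array left out, the replicate block, every other normalization and the other variance model (adjusted p 0.0666 to 0.279). The alternatives without DOX replicate 2 do not test that call. Same-numbered arrays correlated at 0.117, 0.194 and 0.085 in their deviations from the group means. DOX replicates 1 and 2 correlated best with the control array of their own number, and DOX replicate 3 with control replicate 1 (0.116). Deviations within a group of 3 arrays depend on each other, so whether same-numbered arrays were paired cannot be told from these values.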
